A study of Mus musculus with 2 samples.

Results

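A set of 9 transcription factor genes that set up and layer the epidermis was followed in single cells of mouse skin, namely *Trp63*, the Krüppel-like factors *Klf4* and *Klf5*, the grainyhead-like factors *Grhl1* and *Grhl3*, *Ovol1*, and the AP-2 genes *Tfap2a*, *Tfap2b* and *Tfap2c*. They were listed by symbol with earlier results of these data known, and all 9 were found among the 27998 genes of the table. Their levels were compared between basal, suprabasal and hair follicle cells and between a control (Ctrl) and a *Mettl3* conditional knockout (cKO) library. Back skin of embryonic day 17 (E17) embryos on the C57BL/6 strain gave 1 library of each genotype. Ctrl carried Mettl3 fl/+ and cKO carried Mettl3 fl/fl, and both had Rosa16-YFP fl/+ (spelled as in the sample record) and K14Cre, so every sorted YFP+ cell of either library had expressed a Cre driven by the keratin 14 promoter. The control is thus heterozygous for the floxed allele. The sources used here do not say how many embryos entered a library.

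The interfollicular epidermis is fed by a basal layer that divides on the basement membrane. Daughter cells move up, exchange keratins 5 and 14 for keratins 1 and 10, and later build the cornified barrier. The p63 protein, the product of *Trp63*, commits the surface ectoderm to a stratified fate and maintains basal progenitors. Klf4 and Grhl3 are needed for the barrier in mice, Grhl1 for desmosomal cadherin expression and hair anchorage, and Ovol1 restrains the proliferation of differentiating keratinocytes. Klf5 is a Krüppel-like factor of many proliferating epithelia. AP-2 proteins bind many keratinocyte promoters, and AP-2γ, the product of *Tfap2c*, starts the surface ectoderm fate in human stem cells. The hair follicle forms from the same basal sheet, with a *Shh*-positive bud below and *Sox9*- or *Krt79*-positive cells above.

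Cells were counted as barcodes with at least 1800 genes, which left 4447 Ctrl and 3577 cKO cells with medians of 8941 and 8581 unique molecular identifiers (UMIs). The libraries shared 16 cell barcodes. Over these cells *Mettl3* (chromosome 14, 52294841 to 52305128 of GRCm38) had 12.7 CPM (its UMIs per 1000000 UMIs of the sum; 95% interval 11.7 to 13.8) in Ctrl and 6.18 CPM (5.38 to 7.08) in cKO. Because 3′ tags also count transcripts that lack the deleted exon, which is the fourth, this level does not check the deletion. *Xist* had 89523 UMIs in Ctrl and 1 in cKO, while the Y-linked *Ddx3y* had 0 and 1520, so sex and genotype cannot be told apart for any gene below. All intervals cover counting error alone, at the 95% level, because 1 library per condition gives no spread between embryos, and no test between conditions was run.

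Cells were gated on marker genes that include none of the 9 factors, as rates per 10000 UMIs of the cell. Suprabasal cells had at least 20 UMIs of *Krt1* and *Krt10* together, follicle cells at least 2 of *Shh*, *Dkk4*, *Fgf20*, *Lhx2*, *Sox9*, *Krt79* and *Nfatc1*, and basal cells at least 80 of *Krt5* and *Krt14* with little of the other sets. The basal gate held 2418 Ctrl and 1287 cKO cells, the suprabasal gate 443 and 339, and the follicle gate 1092 and 1113, together 6692 of 8024 cells. Basal cells had 10901 CPM of *Krt14* in Ctrl and 9118 in cKO, and suprabasal cells 18734 and 14131 CPM of *Krt10*. *Krt5* and *Krt14* were lower in cKO, and 781 cKO against 426 Ctrl cells fell in no gate. *Ivl*, a gene of the granular layer, was at most 0.758 CPM in any gate. Other late genes had more in suprabasal cells of Ctrl and cKO, with *Casp14* at 36.4 and 27.1 CPM and *Lor* at 16.3 and 8.96 CPM. How far the latest epidermal stages were sampled can thus not be told from *Ivl* alone. No cell passed the gate for immune or endothelial markers, 3 Ctrl and 5 cKO cells passed that for mesenchyme, and 6 and 4 that for neural crest. The sort on integrins α6 and β1 helps to set the share of each gate.

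*Trp63* (chromosome 16, 25683763 to 25892102 of GRCm38) was high in the basal and follicle gates and lower in suprabasal cells. Its level was 292 CPM (285 to 299) in Ctrl and 314 CPM (305 to 324) in cKO basal cells. Suprabasal cells had 146 CPM (136 to 157) in Ctrl and 153 CPM (141 to 166) in cKO. The suprabasal level was therefore 0.50 times the basal level in Ctrl (interval 0.463 to 0.538) and 0.488 times in cKO (0.447 to 0.532). Follicle cells had 258 CPM in Ctrl and 273 CPM in cKO, 0.884 (0.845 to 0.924) and 0.870 (0.828 to 0.913) times the basal level. The order basal, follicle, suprabasal was the same in both libraries, and no 2 neighbours had overlapping intervals. A 3′ tag does not tell the long p63 isoforms with a transactivation domain from the shorter ΔN isoforms, so these values are sums over both promoters.

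Both Krüppel-like genes, both grainyhead-like genes and *Ovol1* were higher in suprabasal than in basal cells of both libraries. A ratio of at least 1.5 in the same direction in both libraries, with at least 20 UMIs over the sums compared, was counted as past the fold. Over all genes measured 9.19% were higher and 15.1% were lower by this rule. Of the 9 factors 5 were higher, 2 (*Trp63* and *Tfap2b*) were lower, and *Tfap2a* and *Tfap2c* passed in neither direction.

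The Krüppel-like genes already had many UMIs in basal cells. *Klf4* (chromosome 4, 55527143 to 55532466) had 160 CPM (155 to 165) in Ctrl and 175 CPM (168 to 182) in cKO basal cells. In suprabasal cells it had 321 CPM (305 to 336) and 299 CPM (282 to 317), which is 2.01-fold higher in Ctrl (1.90 to 2.13) and 1.71-fold higher in cKO (1.59 to 1.84). The intervals of these ratios do not overlap, with the basal level lower and the suprabasal level higher in Ctrl. The size of this gap depends on the gates. With stricter gates the cKO ratio was 1.92, above its interval here, while the Ctrl ratio lay between 1.94 and 2.14 over all alternatives. *Klf5* (chromosome 14, 99298691 to 99315036) went from 128 to 310 CPM in Ctrl, 2.42-fold higher (2.28 to 2.57), and from 134 to 311 CPM in cKO, 2.32-fold higher (2.15 to 2.49). *Klf4* and *Klf5* parted in the follicle gate. *Klf4* had 78.4 CPM there in Ctrl and 86.8 CPM in cKO, 0.492 (0.455 to 0.531) and 0.497 (0.459 to 0.537) times the basal level. *Klf5* had 120 CPM in Ctrl follicle cells, not apart from its basal level at this scaling (ratio 0.939, 0.878 to 1.00), and 105 CPM in cKO (ratio 0.781, 0.723 to 0.843).

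The grainyhead-like genes and *Ovol1* had low basal levels and the steepest gradients of the set. *Grhl1* (chromosome 12, 24572283 to 24617391) had 73 UMIs in all Ctrl basal cells, or 3.02 CPM (2.37 to 3.80), and 41 UMIs in cKO, or 3.15 CPM (2.26 to 4.27). Suprabasal cells had 65.9 CPM (59.2 to 73.2) in Ctrl and 60.6 CPM (53.2 to 68.9) in cKO, 21.8-fold (16.9 to 28.5) and 19.3-fold (13.8 to 27.6) higher. *Grhl3* (chromosome 4, 135541888 to 135573630) was 4.25-fold higher in Ctrl (3.54 to 5.09), from 10.4 to 44.3 CPM, and 3.56-fold higher in cKO (2.91 to 4.35), from 15.0 to 53.2 CPM. *Ovol1* (chromosome 19, 5549136 to 5560646) was 6.47-fold higher in Ctrl (5.58 to 7.50), from 13.0 to 84.1 CPM, and 4.83-fold higher in cKO (4.10 to 5.70), from 19.0 to 91.9 CPM. The other grainyhead-like gene of the epithelium, *Grhl2*, which keeps epithelial junction genes on, had 21.5 and 20.2 CPM in basal and 16.3 and 13.6 CPM in suprabasal cells of Ctrl and cKO. *Grhl1* and *Grhl3* were each caught in a minority of suprabasal cells. At 5500 UMIs per cell, 25 of 435 Ctrl cells and 19 of 330 cKO cells had a UMI of each, against 125 and 86 cells with *Grhl1* and 98 and 69 with *Grhl3*.

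RNA that floats free in the droplets can add UMIs to a gate that does not express a gene, and the lowest levels were set against it. If all *Krt10* UMIs of the basal gate were free RNA, that RNA would make up 7.69% of the Ctrl and 7.36% of the cKO basal sum. At those shares *Grhl1* would receive 0.838 of its 3.02 CPM in Ctrl and 0.947 of its 3.15 CPM in cKO, *Grhl3* 0.718 of 10.4 and 1.12 of 15.0 CPM, and *Ovol1* 1.35 of 13.0 and 2.17 of 19.0 CPM. The basal levels of all 3 genes thus lay above the most that free RNA could give under this bound.

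**Figure D1:**
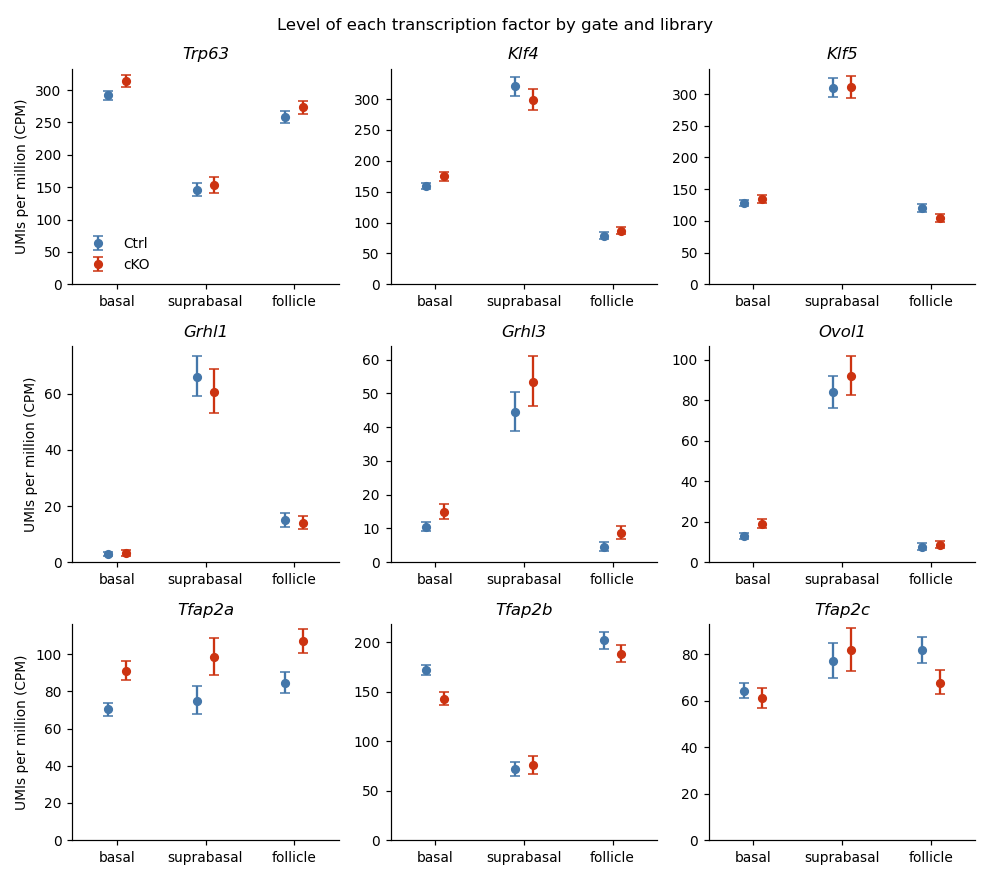
Level of the 9 factors, in CPM (y axis from 0), in the basal, suprabasal and follicle gates (x axis) of the Ctrl (blue) and cKO (red) library, with points for the summed cells of 1 library and bars for the exact Poisson 95% interval. *Klf4*, *Klf5*, *Grhl1*, *Grhl3* and *Ovol1* peak in suprabasal cells, where *Trp63* and *Tfap2b* are lowest.

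Sequence just before the start site is shown for *Klf4* and *Grhl3*, which were higher in suprabasal cells, and for *Tfap2b*, which was lower there. Each run is the 250 bases before the start of the RefSeq transcript on GRCm38.p6, read 5′ to 3′ on the strand of the gene. The windows are chr4:55532476-55532725 on the minus strand for *Klf4*, chr4:135573633-135573882 on the minus strand for *Grhl3* and chr1:19211804-19212053 on the plus strand for *Tfap2b*. The *Klf4* and *Grhl3* windows lie just outside the span of the gene. The *Tfap2b* window lies inside its span of 19208914 to 19238576, before an internal start, and sequence before the outer start is not shown. Capitals mark matches, on either strand, to the letters GGGCGG (GC box), CACCC (bound by Krüppel-like proteins), GCCNNNGGC (the AP-2 palindrome), AACCGGTT (the grainyhead motif), TATAAA and CCAAT.
Klf4: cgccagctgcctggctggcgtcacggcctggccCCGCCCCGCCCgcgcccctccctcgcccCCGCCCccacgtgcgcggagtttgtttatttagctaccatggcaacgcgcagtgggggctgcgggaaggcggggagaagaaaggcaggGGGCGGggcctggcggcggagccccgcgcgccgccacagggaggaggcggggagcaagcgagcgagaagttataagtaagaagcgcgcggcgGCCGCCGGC
Grhl3: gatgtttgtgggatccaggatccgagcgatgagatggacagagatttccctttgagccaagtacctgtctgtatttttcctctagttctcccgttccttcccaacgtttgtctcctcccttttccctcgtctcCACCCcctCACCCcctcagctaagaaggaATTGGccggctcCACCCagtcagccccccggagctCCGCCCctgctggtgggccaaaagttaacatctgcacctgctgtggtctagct
Tfap2b: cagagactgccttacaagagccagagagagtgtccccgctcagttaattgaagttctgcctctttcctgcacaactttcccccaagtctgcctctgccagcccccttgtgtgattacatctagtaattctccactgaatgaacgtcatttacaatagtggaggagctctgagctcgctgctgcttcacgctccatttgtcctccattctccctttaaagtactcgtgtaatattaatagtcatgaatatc
The *Klf4* window held 4 GC boxes, of which a neighbouring pair shares a base, and 1 AP-2 palindrome. *Grhl3* held 3 CACCC boxes, 1 GC box and 1 CCAAT box on the opposite strand. The internal *Tfap2b* window held no match to any of the 6 motifs. G and C made up 74.0% of the *Klf4*, 56.0% of the *Grhl3* and 46.4% of the *Tfap2b* window, with a median of 52.4% over 32851 mouse promoters. Of those promoters 32.7% hold a GC box, 52.0% a CACCC box, 13.7% an AP-2 palindrome, 0.116% a grainyhead motif, 12.4% TATAAA and 33.8% CCAAT. RefSeq windows were matched for 5 of the 9 factors. A match is only a run of letters.

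The 3 AP-2 genes differed from each other across the gates. *Tfap2b* (chromosome 1, 19208914 to 19238576) had 172 CPM (166 to 177) in Ctrl and 143 CPM (136 to 149) in cKO basal cells and 71.6 CPM (64.6 to 79.2) and 75.5 CPM (67.1 to 84.6) in suprabasal cells. The suprabasal level was 0.417 times the basal level in Ctrl (0.375 to 0.464) and 0.530 times in cKO (0.467 to 0.599). The intervals of these ratios only just miss each other, with a lower basal level in cKO by this gate. Among cells below the limit set for cycling the ratios were 0.345 in Ctrl and 0.383 in cKO. Those rest on 162 and 89 suprabasal UMIs, so the gap between the libraries depends on the cells taken. *Tfap2a* (chromosome 13, 40715302 to 40738376) had 70.3 and 74.8 CPM in Ctrl and 91.0 and 98.3 CPM in cKO basal and suprabasal cells, ratios of 1.07 (0.952 to 1.19) and 1.08 (0.960 to 1.21), neither apart from 1. *Tfap2c* (chromosome 2, 172549593 to 172558622) was slightly higher in suprabasal cells, 1.20-fold (1.07 to 1.34) from 64.2 to 77.1 CPM in Ctrl and 1.34-fold (1.17 to 1.52) from 61.1 to 81.6 CPM in cKO. In follicle cells all 3 AP-2 genes were above their basal level in both libraries by less than the 1.5-fold limit, with ratios from 1.11 for *Tfap2c* to 1.32 for *Tfap2b*, both in cKO, but the log2 ratio went to -0.01 for *Tfap2b* in Ctrl under TMM scaling and to -0.04 for *Tfap2c* in cKO under median of ratios scaling.

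To see where along differentiation each factor moved, cells outside the follicle were split by their *Krt1* and *Krt10* rate into under 2, 2 to 20, 20 to 100, 100 to 300 and at least 300 UMIs per 10000. The step from the second to the third class is the entry into the suprabasal layer. *Klf5* had 112 and 137 CPM in the lowest classes of Ctrl and 295 CPM in the third, and then 340 and 299 CPM. In cKO the same values were 123, 148, 312, 328 and 289 CPM, so *Klf5* was at its suprabasal level by the third class in both libraries. *Grhl3* took the same course, with 8.15, 11.9, 42.5, 39.8 and 48.4 CPM in Ctrl and 12.7, 17.8, 52.6, 58.0 and 48.5 CPM in cKO, and the intervals of its upper 3 classes overlapped.

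*Grhl1* kept climbing with keratin load. It had 2.44, 4.02, 27.4, 65.8 and 88.7 CPM in Ctrl and 3.35, 5.69, 24.3, 74.4 and 82.4 CPM in cKO, so the third class was well under the fifth in each library. *Ovol1* went from 9.97 to 69.9 CPM by the third class and 97.2 CPM in the fifth in Ctrl, and from 13.3 to 69.9 and 121 CPM in cKO. *Klf4* had 155 CPM in each of the lowest classes, then 244, 282 and 391 CPM in Ctrl. In cKO it had 166, 171, 204, 346 and 344 CPM, with the larger step between the third and the fourth class.

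*Trp63* and *Tfap2b*, the factors lower in suprabasal cells, went down by steps. *Trp63* had 294, 300, 183, 164 and 113 CPM in Ctrl and 326, 323, 231, 117 and 115 CPM in cKO. *Tfap2b* had 183, 170, 107, 82.8 and 43.7 CPM in Ctrl and 173, 153, 111, 79.5 and 34.8 CPM in cKO, the lowest value of each library being in the class richest in *Krt1* and *Krt10*. *Tfap2c* was highest in the middle, at 94.4 and 94.5 CPM in the third and the fourth class of Ctrl and 101 CPM in the third class of cKO, with 55.6 and 63 CPM in the fifth. *Tfap2a* had no common course, with 71.2, 71.8, 56.9, 96.5 and 71.3 CPM in Ctrl and 96.7, 98.1, 113, 85.2 and 97.8 CPM in cKO. Neither *Trp63* nor *Tfap2b* went to 0 in the fifth class, which held 184 Ctrl and 105 cKO cells with 266 and 142 UMIs of *Trp63*.

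**Figure D2:**
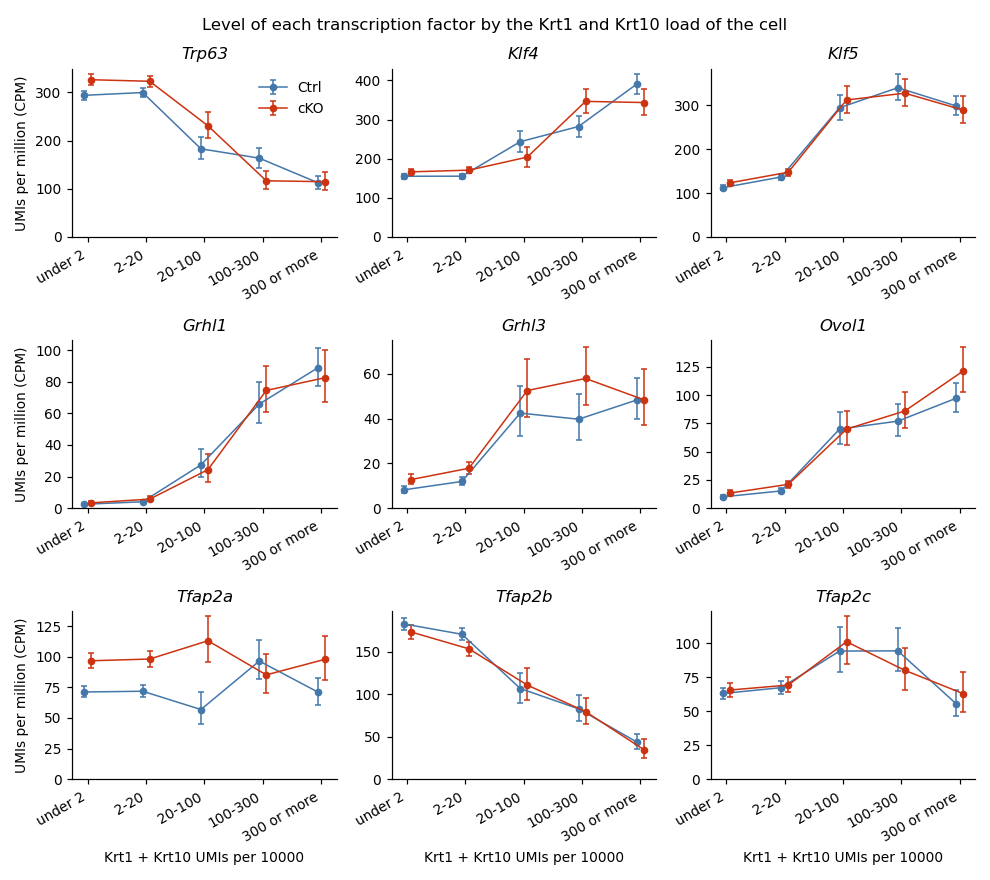
Level of the 9 factors in CPM (y axis from 0) against the *Krt1* and *Krt10* rate of the cell in 5 classes of UMIs per 10000 (x axis), for Ctrl (blue) and cKO (red) cells outside the follicle, with Poisson 95% intervals. *Klf5* and *Grhl3* reach their upper level in the class of 20 to 100, *Grhl1* goes on to 88.7 and 82.4 CPM in the class of at least 300, and *Tfap2b* goes down to 43.7 and 34.8 CPM.

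In the follicle gate *Grhl1* was the 1 factor past the fold upward and *Klf4*, *Grhl3* and *Ovol1* were past it downward in both libraries. Over all genes 14.8% were higher and 3.39% were lower in follicle than in basal cells by the same rule. *Grhl1* had 15.0 CPM (12.7 to 17.6) in Ctrl and 13.9 CPM (11.7 to 16.4) in cKO follicle cells, 4.95-fold (3.72 to 6.64) and 4.42-fold (3.10 to 6.42) above basal cells. *Grhl3* had 4.50 CPM (3.30 to 6.01) and 8.58 CPM (6.87 to 10.6), 0.431 (0.308 to 0.593) and 0.574 (0.440 to 0.742) times its basal level. *Ovol1* had 7.64 CPM (6.04 to 9.53) and 8.58 CPM (6.87 to 10.6), 0.587 (0.452 to 0.755) and 0.451 (0.349 to 0.578) times its basal level. Among cells below the limit set for cycling, *Grhl3* had 10.9 CPM in basal and 12.3 CPM in follicle cells of cKO, from 48 and 50 UMIs, so its lower follicle level did not hold in those cells. *Ovol1* stayed lower there in cKO, at 10.8 against 15.6 CPM, but by under 1.5-fold.

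Follicle cells were then divided into a bud side, with more UMIs of *Shh*, *Dkk4* and *Fgf20* (258 Ctrl and 306 cKO cells), and an upper side, with more of *Sox9*, *Krt79* and *Nfatc1* (795 and 778 cells). Of all genes 4.16% were higher and 11.4% were lower on the bud side in both libraries, and of the factors 2 were higher and 3 were lower. *Klf5* had 39.6 CPM on the bud side and 152 CPM on the upper side in Ctrl, a ratio of 0.261 (0.210 to 0.320), and 33.6 and 136 CPM in cKO, a ratio of 0.246 (0.198 to 0.304). *Klf5* was thus lower on the bud side than in basal, suprabasal or upper-side cells. *Grhl1* had 4.36 CPM against 18.7 CPM in Ctrl (ratio 0.233, 0.114 to 0.430) and 2.1 against 18.9 CPM in cKO (0.111, 0.0400 to 0.248), so its higher follicle level came from the upper side. *Ovol1* had 1.98 against 9.69 CPM in Ctrl, from 5 and 71 UMIs, and 4.89 against 10.2 CPM in cKO, from 14 and 72 UMIs.

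*Tfap2b* and *Tfap2c* had the opposite order. *Tfap2b* had 284 CPM on the bud side and 170 CPM on the upper side in Ctrl (ratio 1.67, 1.52 to 1.83) and 254 and 158 CPM in cKO (1.61, 1.46 to 1.77). *Tfap2c* had 114 and 68.8 CPM in Ctrl (1.66, 1.43 to 1.92) and 94.4 and 57.0 CPM in cKO (1.65, 1.41 to 1.94). *Trp63* was level across the follicle, with 261 and 258 CPM in Ctrl and 286 and 270 CPM in cKO, ratios of 1.01 (0.927 to 1.11) and 1.06 (0.975 to 1.15). *Tfap2a* was a little lower on the bud side, 0.855 (0.724 to 1.01) in Ctrl and 0.859 (0.746 to 0.986) in cKO. *Klf4* had ratios of 0.867 (0.729 to 1.03) and 1.16 (1.00 to 1.34), on either side of 1. *Grhl3* differed between the libraries, with a ratio of 1.27 (0.626 to 2.45) in Ctrl from 14 and 32 UMIs and of 0.399 (0.197 to 0.738) in cKO from 12 and 74 UMIs.

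**Figure D3:**
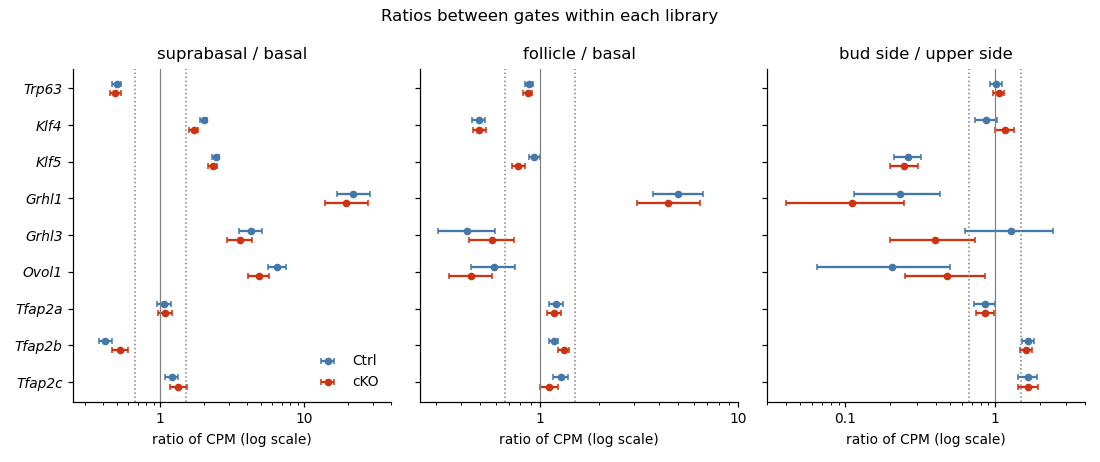
Ratio of CPM of suprabasal to basal, follicle to basal and bud-side to upper-side follicle cells (x axes, log scale) for the 9 factors, in Ctrl (blue) and cKO (red), with exact 95% intervals for counting error and dotted lines at 1.5-fold either way. *Grhl1* lies farthest to the right in the suprabasal panel at 21.8 and 19.3, and *Klf5* has ratios of 0.261 and 0.246 in the bud-side panel.

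Outside the 3 gates, 32 Ctrl and 25 cKO cells passed the gate for the Merkel cell genes *Krt20*, *Atoh1* and *Sox2*, which mark the touch receptor cells of the epidermis. *Tfap2b* had 346 UMIs in these Ctrl cells, or 1545 CPM (1386 to 1716), and 163 UMIs in the cKO cells, or 947 CPM (807 to 1104). It had a UMI in 31 of 32 and 24 of 25 of them. *Trp63* had 20 and 18 UMIs there, or 89.3 CPM (54.5 to 138) and 105 CPM (61.9 to 165), below its basal and follicle levels in each library. *Grhl1* had 0 UMIs in the Ctrl cells, which allows up to 16.5 CPM, and 2 in the cKO cells. *Klf4* had 125 and 46.5 CPM there, *Klf5* 134 and 145 CPM, *Ovol1* 31.2 and 40.6 CPM, *Tfap2a* 129 and 139 CPM and *Tfap2c* 44.6 and 46.5 CPM, all from 30 UMIs or fewer, and *Grhl3* had 1 and 0 UMIs. These are few cells, and the Merkel gate was meant to take them out of the other comparisons.

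Cycling was defined by at least 3 UMIs per 10000 of *Mki67*, *Top2a*, *Cdk1*, *Ccnb1* and *Cenpf*, which held for 1289 of the Ctrl and 767 of the cKO basal cells. None of the 9 factors was past the fold in both libraries, where 4.48% of all genes were higher and 1.24% lower in cycling cells. *Klf5* was lower in cycling basal cells, 118 against 142 CPM in Ctrl (ratio 0.831, 0.773 to 0.892) and 128 against 147 CPM in cKO (0.869, 0.788 to 0.959). *Trp63* was at 0.922 (0.880 to 0.967) and 0.971 (0.910 to 1.04) times the level of other basal cells. *Grhl3* was higher in cycling cells of cKO, 17.1 against 10.9 CPM (1.57, 1.13 to 2.22), while in Ctrl the values were 11.2 and 9.32 CPM (1.20, 0.923 to 1.57). *Tfap2b* was higher in cycling cells by 1.10-fold (1.03 to 1.17) in Ctrl and 1.19-fold (1.08 to 1.32) in cKO, and *Tfap2c* by 1.21-fold (1.09 to 1.34) and 1.19-fold (1.02 to 1.39). The ratios of *Tfap2a* were 1.06 and 1.03 and those of *Grhl1* 0.661 and 1.10, none apart from 1. *Klf4* was at 0.908 (0.851 to 0.968) in Ctrl and 1.04 (0.951 to 1.13) in cKO, and *Ovol1* at 0.889 (0.707 to 1.12) and 1.33 (1.00 to 1.78).

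The share of cells in which a factor was caught followed the levels. Every cell was thinned to 5500 UMIs, which left out 45 Ctrl and 34 cKO basal cells, 8 and 9 suprabasal cells and 67 and 114 follicle cells. *Trp63* had a UMI in 75.2% of Ctrl basal cells (73.4% to 76.9%) and 78.5% of cKO basal cells (76.2% to 80.8%), and in 53.1% (48.3% to 57.9%) and 51.8% (46.3% to 57.3%) of suprabasal cells. Without thinning the basal shares were 90.0% and 91.4%. *Grhl1* had a UMI in 1.5% of Ctrl (1.0% to 2.0%) and 1.9% of cKO basal cells (1.2% to 2.8%) and in 28.7% (24.5% to 33.2%) and 26.1% (21.4% to 31.2%) of suprabasal cells. *Ovol1* had a UMI in 6.4% and 8.9% of basal and 33.1% and 33.6% of suprabasal cells. *Klf4* and *Klf5* were caught together in 59.5% of Ctrl and 57.6% of cKO suprabasal cells. In the few cells of other types, mainly the Merkel gate, *Trp63* had a UMI in 32.0% (14.9% to 53.5%) of 25 Ctrl and 27.3% (10.7% to 50.2%) of 22 cKO cells. Their medians were 6246 and 5964 UMIs before thinning, against 9120.5 and 9294 UMIs of basal cells. *Trp63* and *Grhl1* also shared cells. Of the Ctrl suprabasal cells with *Grhl1*, 48.0% had a UMI of *Trp63*, and of those in cKO 54.7%, next to the shares of 53.1% and 51.8% over all suprabasal cells.

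Between cKO and Ctrl 0 of 9 factors were at least 1.5-fold apart in basal cells, where 12.6% of 11771 genes were (7.42% higher and 5.22% lower in cKO). In suprabasal cells 0 of 9 were, with 17.7% of all genes (11.9% higher, 5.76% lower), and in follicle cells 1 of 9, with 10.5% of all genes (5.72% higher, 4.78% lower). With 9 genes these counts are near the shares over all genes and are no result about the factors. The median log2 ratio of the 9 was 0.10 in basal, 0.08 in suprabasal and 0.08 in follicle cells, beside 0.01, 0.04 and -0.03 over all genes measured. *Trp63* was 1.07-fold higher in cKO basal cells (1.03 to 1.12), 1.05-fold in suprabasal cells (0.941 to 1.17) and 1.06-fold in follicle cells (1.00 to 1.12).

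*Tfap2a* was the 1 factor higher in cKO in all 3 gates beyond counting error. Its ratio was 1.29 (1.20 to 1.40) in basal, 1.31 (1.14 to 1.51) in suprabasal and 1.27 (1.16 to 1.39) in follicle cells, with 70.3, 74.8 and 84.6 CPM in Ctrl and 91.0, 98.3 and 107 CPM in cKO. Within the suprabasal gate this order did not hold in the class of 100 to 300 UMIs of *Krt1* and *Krt10*, where *Tfap2a* had 96.5 CPM (81.6 to 113) in Ctrl and 85.2 CPM (70.6 to 102) in cKO, with overlapping intervals. In basal cells the ratio was above those of 84.1% of all genes measured. In follicle cells below the cycling limit the *Tfap2a* ratio was 1.13, under its interval in the whole gate, from 422 UMIs in cKO and 430 in Ctrl. In basal cells below that limit its log2 ratio was 0.39, beside 0.37 in the whole gate. *Grhl3* and *Ovol1* were higher in cKO basal cells, 1.43-fold (1.18 to 1.73) and 1.46-fold (1.23 to 1.73), from 195 UMIs in cKO and 252 in Ctrl for *Grhl3* and 248 and 314 for *Ovol1*, the cKO sum being smaller. In the class with under 2 UMIs of *Krt1* and *Krt10* per 10000 they were also higher, 12.7 against 8.15 CPM and 13.3 against 9.97 CPM. In basal cells *Krt1* was 115 CPM in cKO and 90.0 CPM in Ctrl, and *Krt10* 155 and 168 CPM. Of the late differentiation genes 3 of 12 measured there were past the fold upward and 0 downward, beside 7.42% and 5.22% of all genes. Their median log2 ratio was 0.23 beside 0.01 over all genes. Among them *Lor* had a ratio of 1.77 (1.47 to 2.14) and *Dsg1a* of 1.57 (1.35 to 1.84), while *Calm4* and *Sbsn* both had 1.34. *Lor* went the other way in suprabasal cells, with a ratio of 0.550 (0.360 to 0.823). In cKO it was lower in suprabasal than in basal cells, at 8.96 against 17.0 CPM. In Ctrl it was higher in suprabasal than in basal cells, at 16.3 against 9.57 CPM. The part of these genes in the result was not tested. In basal cells below the cycling limit the ratios of *Grhl3* and *Ovol1* were 1.17 and 1.12. In basal cells with at least 2500 genes they were 1.65 and 1.61, past the fold.

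*Grhl3* was the factor past the fold in follicle cells, at 8.58 CPM in cKO and 4.50 CPM in Ctrl from 87 and 46 UMIs, a ratio of 1.91 (1.32 to 2.79) that was above 98.3% of all genes measured. The difference lay on the upper side, with 10.5 against 4.37 CPM, while the bud side had 4.19 and 5.54 CPM. In follicle cells below the cycling limit the ratio was 3.19, from 50 UMIs in cKO and 18 in Ctrl. In the whole follicle gate *Zfp750* had a ratio of 1.97 (1.37 to 2.87), *Lor* of 1.77 (1.22 to 2.61) and *Dsg1a* of 1.65 (1.09 to 2.53), and their part in the result was not tested. Of the late differentiation genes 2 of 9 measured there were past the fold upward and 0 downward, beside 5.72% and 4.78% of all genes. With 9 genes this is a small count, and their median log2 ratio was -0.09 beside -0.03 over all genes. In suprabasal cells *Grhl3* had a ratio of 1.20 (0.991 to 1.45), not apart from 1.

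*Tfap2b* was lower in cKO basal cells, at 0.831 times the Ctrl level (0.786 to 0.878), and close to it in suprabasal (1.05, 0.902 to 1.23) and follicle cells (0.935, 0.878 to 0.995). Its basal ratio depended on the gate, being 0.761 with stricter gates and 0.928 without the *Krt5* and *Krt14* minimum. In the class with under 2 UMIs of *Krt1* and *Krt10*, *Tfap2b* had 183 CPM (176 to 190) in Ctrl. The cKO level there was 173 CPM (165 to 181), with overlapping intervals. *Tfap2c* was lower in cKO follicle cells (0.829, 0.748 to 0.918) and not apart from Ctrl in basal (0.952, 0.873 to 1.04) or suprabasal cells (1.06, 0.911 to 1.23). In follicle cells below the cycling limit the *Tfap2c* ratio was 0.925, above its interval in the whole gate, from 261 UMIs in cKO and 324 in Ctrl. *Klf5* was lower in cKO follicle cells as well (0.872, 0.802 to 0.947), and its basal and suprabasal ratios of 1.05 (0.988 to 1.11) and 1.00 (0.930 to 1.08) included 1. *Klf4* was 1.10-fold higher in basal cells (1.04 to 1.15), 1.11-fold in follicle cells (1.00 to 1.22) and at 0.933 (0.865 to 1.01) in suprabasal cells. The basal ratio of *Klf4* depended on the cells taken, being 1.01 below the cycling limit and 1.16 with at least 2500 genes per cell. *Grhl1* had ratios of 1.04 (0.692 to 1.55), 0.920 (0.777 to 1.09) and 0.928 (0.733 to 1.17) in basal, suprabasal and follicle cells, none apart from 1.

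**Figure D4:**
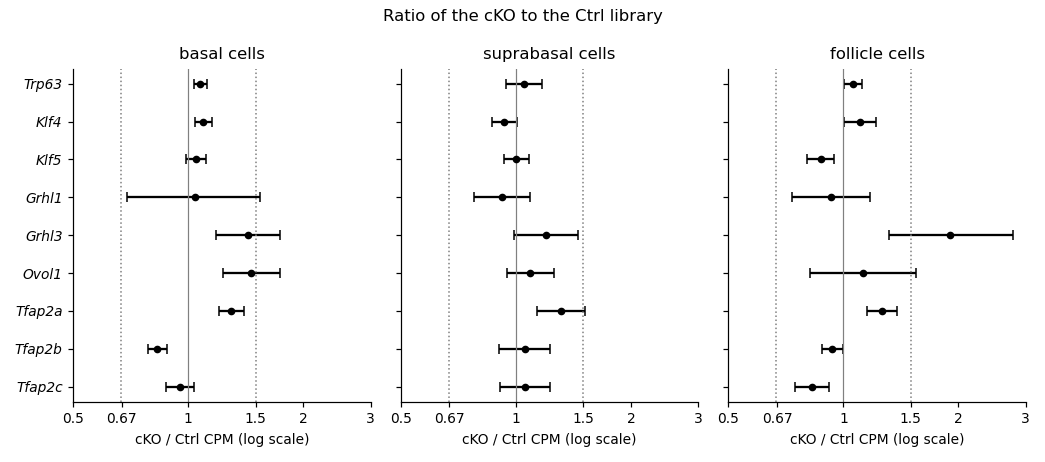
Ratio of the cKO to the Ctrl level of the 9 factors (x axis, log scale) in basal, suprabasal and follicle cells, with exact 95% intervals for counting error and dotted lines at 1.5-fold either way. Only *Grhl3* in follicle cells, at 1.91, lies past a dotted line, and *Tfap2a* lies at 1.29, 1.31 and 1.27.

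Relatives of the 9 factors were read from a list of 23 genes. Between suprabasal and basal cells 5 of 21 measured relatives were higher and 6 were lower in both libraries, beside 9.19% and 15.1% of all genes. Between follicle and basal cells 8 of 21 were higher and 3 lower, beside 14.8% and 3.39%. *Klf3*, a Krüppel-like repressor, followed *Klf4* and *Klf5* with 65.4 and 78.4 CPM in basal and 120 and 145 CPM in suprabasal cells of Ctrl and cKO. *Trp73*, the close relative of *Trp63* in the p53 family, followed it, with 18.2 and 15.4 CPM in basal and 2.65 and 3.07 CPM in suprabasal cells. *Ovol2*, known for keeping cells epithelial, went the other way from *Ovol1*, with 18.2 and 20.9 CPM in basal, 3.41 and 5.12 CPM in suprabasal and 47.4 and 49.4 CPM in follicle cells. *Tfap2e*, a further AP-2 gene, had 10.7 and 11.3 CPM in basal and 3.72 and 3.35 CPM in follicle cells. Between genotypes 0 of 21 relatives were past the fold in basal and in follicle cells, and 2 were higher and 1 lower of 20 in suprabasal cells, where 11.9% and 5.76% of all genes were, so the count is near that over all genes. *Trp53* had the lowest basal ratio among the named relatives, 0.68 (0.65 to 0.72), from 238 to 163 CPM.

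Of 29 other transcription factors of the epidermis, 23 were measured between suprabasal and basal cells, and 11 were higher and 6 lower, beside 9.19% and 15.1% of all genes. *Zfp750*, a p63 target that drives late differentiation of human keratinocytes, had 7.75 and 12.1 CPM in basal and 113 and 134 CPM in suprabasal cells. *Cebpa* had 35.5 and 38.0 CPM in basal and 160 and 146 CPM in suprabasal cells, and *Bnc1*, a factor of basal cells, 14.7 and 17.4 CPM in basal and 1.71 and 2.81 CPM in suprabasal cells. In follicle cells 11 of 25 were higher than in basal cells and 4 were lower, beside 14.8% and 3.39% of all genes, with *Runx1* at 95.2 and 110 CPM against 2.73 and 3.45 CPM. Between genotypes 7 of 23 were at least 1.5-fold higher in cKO basal cells and 0 lower, beside 7.42% and 5.22% of all genes. Among them *Hes1*, the Notch effector, had a ratio of 1.89 (1.71 to 2.08), *Msx2* 1.68 (1.29 to 2.20), *Cebpb* 1.59 (1.49 to 1.70) and *Zfp750* 1.56 (1.26 to 1.94). The median log2 ratio of the list was 0.13 in basal cells beside 0.01 over all genes.

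All 30 genes listed as known p63 targets in keratinocytes were measured. In suprabasal cells 16 were lower and 6 higher than in basal cells, beside 15.1% and 9.19% of all genes, with a median log2 ratio of -0.84 beside -0.09 over all genes. Those lower included the integrin gene *Itga3*, which serves adhesion to the basement membrane, with 28.8 and 32.8 CPM in basal and 4.36 and 6.65 CPM in suprabasal cells. Those higher were led by *Cdkn1a*, a cell cycle inhibitor that p63 represses, with 14.0 and 15.7 CPM in basal and 187 and 175 CPM in suprabasal cells, and by the desmosome genes *Dsp*, *Perp* and *Pkp1* with ratios from 2.5 to 2.96. In follicle cells 11 of 30 were lower and 1, *Cdkn1a*, was higher than in basal cells, beside 3.39% and 14.8% of all genes. Between genotypes 1 was higher and 2 lower in cKO basal cells, a count near the 12.6% of all genes. These were *Sfn*, a 14-3-3 protein gene, at 1.64 (1.61 to 1.67), *Krt15* at 0.61 (0.60 to 0.62) and *Igfbp3* at 0.54 (0.43 to 0.68). Of the late differentiation genes 13 of 15 measured were higher in suprabasal than in basal cells and 0 lower, beside 9.19% and 15.1% of all genes. Their median log2 ratio was 3.36. *Casp14*, a protease of cornifying cells, had 0.62 and 0.54 CPM in basal and 36.4 and 27.1 CPM in suprabasal cells.

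The genes most like each factor in pattern were found over 14 sums, the 5 keratin classes and the 2 follicle sides of each library, by Pearson's r of log2(CPM + 1) among 8344 genes with at least 500 UMIs. The sums share libraries and gates, so r is given as a description. *Tfap2b* was closest to *Sox4* (r 0.996), *Tspan6* (0.991) and *Tead2* (0.983), and *Trp63* to *Zfp36l1* (0.981), *Card10* (0.968) and *Klhl22* (0.965). *Ovol1* was closest to *Dsc3* (0.993), *Tmem79* (0.989) and *Fam57a* (0.988), and *Grhl1* to *Cebpa* (0.990), *Cdkn1a* (0.987) and *Sdr16c5* (0.981). *Klf4* was closest to *Egln3* (0.988), *Polr3g* (0.980) and *Eef1d* (0.974), *Klf5* to *Rapgefl1* (0.981), *Limk2* (0.976) and *Morc4* (0.967), and *Grhl3* to *Ppan* (0.987), *Pusl1* (0.981) and *Metrnl* (0.976). *Tfap2a* and *Tfap2c* had weaker nearest genes, *0610009B22Rik* at 0.910 and *Pwp1* at 0.861. Among the factors themselves, *Grhl3* and *Ovol1* had an r of 0.96, *Klf4* and *Ovol1* 0.93, *Trp63* and *Tfap2b* 0.89, and *Trp63* and *Grhl1* -0.91, while *Tfap2a* lay between -0.18 with *Klf4* and 0.16 with *Trp63*.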

How the data were processed

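Sorted skin epithelium of E17 embryos gave a Ctrl and a cKO library by the 10x Genomics 3′ kit, version 2. The deposited matrices hold UMI counts for each barcode, generated by the authors in Cell Ranger against mm10 before any cell filter, aggregation or normalization. The submitters' notes name Cell Ranger 2.0, the methods a later version, and the annotation release is not given in the sources used here. The counts sum to 59664869 UMIs in Ctrl and 49755010 in cKO.

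The members and lists were chosen with earlier results of these data known. Barcodes with at least 1800 genes were kept and gated on marker genes, with cells of other types taken out first. UMIs were summed per gate and library, giving 24137760 and 13035394 UMIs in the basal, 5278270 and 3908109 in the suprabasal and 10212394 and 10136794 in the follicle gate. Sums were scaled to CPM by their total, with exact Poisson intervals for levels and exact conditional binomial intervals for ratios. UMIs are molecules, but the intervals cover counting error only. Simulated counts were used to test the coverage of these intervals. They were drawn from the Poisson model that the intervals assume, so they cannot show coverage where cells vary more than that. At 5500 UMIs per cell the variance of *Trp63* UMIs over Ctrl basal cells was 1.33 times the mean. For *Klf5* in Ctrl follicle cells it was 2.27 times, and for *Tfap2a* in Ctrl suprabasal cells 0.930 times. Shares of cells carry Clopper-Pearson intervals. Near the gates, 151 of 4406 Ctrl and 150 of 3543 cKO cells had a *Krt1* and *Krt10* rate between 10 and 40, 609 and 580 a follicle rate between 1 and 4, and 754 and 818 a *Krt5* and *Krt14* rate between 60 and 100. Free RNA was read from barcodes with 10 to 100 UMIs.

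The 9 factors are described whatever their values. From a list, no more than the 4 highest and 2 lowest members by ratio in a contrast are named, each with 100 UMIs or more. For likeness the 3 genes with the highest r were taken. Scrublet marked 6 Ctrl and 3 cKO cells, under 0.5%, so no doublets were removed and an alternative dropped the top 4% by score, 178 Ctrl and 143 cKO cells. Alternatives changed scaling, gene minimum, gates, cell weight, free RNA, mitochondrial share, cycling and the fold. 1 gate without the *Krt5* and *Krt14* minimum was added after seeing the data. Gene positions came from GENCODE vM21 on GRCm38, and *Trp63* overlaps a same-strand gene model that is not in the table. Python 3.11.15 with numpy 2.4.6, scipy 1.17.1, pandas 2.3.3, scanpy 1.11.5 and matplotlib 3.10.9 was used, with edgeR 4.0.16 in R 4.3.3 for TMM factors. The paper's supplementary tables were not used here.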

Additional observations from a re-analysis of the deposited data

How the results depend on the processing

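No paired analysis was possible because each condition holds 1 library. Of 63 ratios of the 9 factors under 13 alternatives, 749 of 819 values stayed within the counting interval of the reported ratio. Part of that count was fixed in advance. The looser basal gate and the gate without the *Krt5* and *Krt14* minimum cannot change a genotype ratio in suprabasal or follicle cells. The 7 factors past 1.5-fold between suprabasal and basal cells stayed 7 under every alternative but a 2-fold limit, which left 5. The count between cKO and Ctrl in basal cells, 0 as reported, was 2 with at least 2500 genes per cell (*Grhl3* and *Ovol1*) and 1 with stricter gates and the looser basal gate (*Grhl3*) and without doublets (*Ovol1*). In follicle cells the count of 1 became 0 with a 2-fold limit. The 4 factors past the fold between follicle and basal cells became 2 with a 2-fold limit and 2 in cells below the cycling limit. In those cells the log2 ratio of *Grhl3* between follicle and basal cells of cKO turned to 0.18 from -0.80, and its ratio of cKO to Ctrl in follicle cells went from 1.91 to 3.19, beyond the counting interval, and the cause was not tested. Between follicle and basal cells the median of all genes was 0.22 in Ctrl and 0.17 in cKO on the log2 scale, and TMM scaling moved it to -0.03 and -0.01. The small follicle ratios of the AP-2 genes, *Trp63* and *Klf5* thus depend on scaling. In Ctrl TMM scaling moved *Trp63* from 0.884 to 0.746 and *Klf5* from 0.939 to 0.793 times the basal level. In cells below the cycling limit the Ctrl ratio of *Klf5* was 1.13. Between genotypes 8 of the ratios near 1 changed sign under some alternative. The median share of cells with a UMI over the 9 factors in Ctrl basal cells was 31.4% at 5500 UMIs, 48.1% without thinning and 23.2% at 4000 UMIs. Each library had under 100 UMIs of *Grhl1* in basal and of *Grhl3* in follicle cells, so counting limits the precision of those values.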
